A study of Mus musculus with 9 samples.

Results

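Livers break down most amino acids that are not built into protein, and the enzymes that do so are described here in livers of mice given an empty vector (AAV-V), a vector for GP73 (AAV-GP73) or, as AAV-V HFD, the empty vector while on a diet rich in fat. The set holds 52 genes of 37074 gene names on the arrays, chosen by name from textbook pathways and sorted into 8 groups by amino acid. The choice was made with earlier results of these data known, so that the counts below describe the set and are no separate support. Each gene was represented by its brightest probe over 9 arrays. Testing asked for a probe well above background throughout at least 1 group of 3 arrays, which held for 44 of the 52 enzymes and for 5761 genes in all. Afmid, Acmsd, Dbt, Mccc2, Pcca, Mcee, Shmt1 and Amt were not tested, because no group had their probe well above background on all of its arrays.

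The mice were male C57BL/6N per the methods and the labels give an age of 12 months, although the sample descriptions and the study use that time for the interval after injection, so that the age is not settled. There were 3 liver samples per group, and the labels leave unstated if mice were pooled, so that the spread between samples is all that the p values measure. AAV-V and AAV-GP73 mice received the normal diet, and AAV-V HFD mice received the empty vector with the high-fat diet. Every group had thus been injected with AAV, made to act in hepatocytes, which carried mouse GP73 in AAV-GP73 alone, and the study gives differing feeding times for the high-fat diet. Golm1, the gene for GP73, could not serve as a check of the labels, since its 1 probe was well above background on 0 arrays. Total RNA was labelled with Cy3 and hybridised to 1-colour Agilent arrays.

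Amino acid breakdown starts with removal or capture of the amino group, mostly by transaminases, and goes on with dedicated enzymes that feed the carbon skeleton into the citric acid cycle, ketone bodies or glucose. Phenylalanine and tyrosine end as fumarate and acetoacetate, tryptophan is opened by a dioxygenase into the kynurenine route, and the branched-chain amino acids share a mitochondrial ketoacid dehydrogenase. Methionine is activated to S-adenosylmethionine, the methyl donor of the cell, and its sulfur passes by transsulfuration into cysteine and taurine. Many of these enzymes are far more abundant in hepatocytes than in other cells, and several differ between the periportal and pericentral ends of the liver lobule.

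Several properties of the arrays bear on every value below. A spot that the scanner software marked as well above background is called detected below. Between 10.17% and 10.75% of spots were detected in AAV-V, against 16.02% to 18.38% on the AAV-GP73 and 13.8% to 16.74% on the AAV-V HFD arrays. One slide carried AAV-V and AAV-GP73, in different columns, and a further slide carried AAV-V HFD, which means that the diet cannot be told apart from the slide. The log2 signals were shifted to a common 75th percentile, taken over 2666 probes that every one of the 9 arrays detected, and this scaled log2 signal is the unit of every level below. On this scale the lowest signal well above background was 3.76 to 3.94 on the AAV-V arrays and 1.85 to 2.81 on the other arrays. The median of all probes, most of which were not detected, was 1.73 to 1.88 on the AAV-V arrays and -0.09 to 0.82 on the others. Readings below detection thus lay higher in AAV-V. All 44 enzymes tested were detected on all AAV-GP73 arrays, 37 on all AAV-V HFD arrays and 12 on all AAV-V arrays, so that 7 (Hgd, Kynu, Acadsb, Mccc1, Pccb, Csad and Gldc) passed through AAV-GP73 alone, and the counts of called enzymes describe a set whose filter favours genes high in AAV-GP73. Of the 44, 22 were detected on no AAV-V array, so that the rise of such a gene is given as a lower bound ("at least"), with that lowest signal in place of a dimmer value. The adjusted p printed beside a bound belongs to the fitted difference, which uses the dim values as read, and not to the bound. A bound is a difference of group means and makes no allowance for the spread between arrays. Hibadh was detected on 2 AAV-V arrays, and Kmo, Bckdhb, Ahcy, Cdo1, Amdhd1, Ftcd, Gcsh, Dmgdh and Sardh on 1. No bound was applied to these, so that their differences rest in part on readings below detection.

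Probes of the same gene differed with their position, and the enzymes were not exempt. Among 384 genes with tested probes at least 1000 bases apart, the probe nearest the 3′ end of the gene gave the larger AAV-GP73 minus AAV-V difference in 75.8%, with a median difference of 1.11 for the 3′ probe and 0.31 for the 5′ probe. For AAV-V HFD minus AAV-V the medians were 0.92 and -0.15. For 5 enzymes with tested probes that far apart, the AAV-GP73 medians were 1.57 for the 3′ probe and 0.43 for the 5′ probe. Of the enzymes, 33 had 1 tested probe and 11 had 2 or more. Counted by sign alone, called or not, 9 of these 11 had all probes higher in AAV-GP73 than in AAV-V. The 2 exceptions were Got1 and Aldh7a1. Among the 9, the second probes of Bckdhb (0.44), Glud1 (0.43), Kmo (0.97) and Bhmt (0.11) were not called, nor was the brightest of Ppm1k (0.78). Signs were also counted for the diet. In AAV-V HFD 6 of the 11 had all probes higher than in AAV-V, 4 (Aldh7a1, Bhmt, Glud1 and Ppm1k) had probes of both signs, and Got1 had all probes lower. The part of probe position in the results was not tested.

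Of the 44 enzymes tested, 38 rose in AAV-GP73 against AAV-V and 0 fell, where a call needed a 2-fold difference and an adjusted p under 0.05 (limma, over every gene tested). Among all genes tested, 33.2% were called higher and 19.4% lower. The median difference was 2.02 over the enzymes and 0.6 over all genes. In AAV-V HFD against AAV-V, 26 enzymes rose and 0 fell, where 24.8% of all genes were called higher and 18.2% lower, and the median difference was 1.39 over the enzymes and 0.37 over all genes. At an unadjusted p under 0.05 in this fit, 0 enzymes were lower in AAV-GP73 and 1 was lower in AAV-V HFD, and the methods' t-test called 0 lower in either. Both comparisons share the AAV-V arrays: 25 enzymes were called in both, 13 in AAV-GP73 alone, 1 (Prodh) in AAV-V HFD alone and 5 in neither. The difference between AAV-GP73 and AAV-V HFD was called for 2 enzymes, Csad and Gldc, both higher in AAV-GP73 and both tested only because AAV-GP73 passed the filter, where 1.96% of all genes were called higher and 0.555% lower.

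Counts of called enzymes depended on what was done with the dim signals of the AAV-V arrays. Of the 38 enzymes called in AAV-GP73, 19 were detected on no AAV-V array, and for 12 of these 19 the lower bound itself reached a fold of 2. With bounds in place of fitted values the median over the enzymes was 1.47 in AAV-GP73, against 0.95 in AAV-V HFD. Among the 2426 genes detected on all 9 arrays, where no bound is needed, 11 of 12 enzymes were called higher in AAV-GP73, against 7 of 12 in AAV-V HFD, while 16.1% and 11.6% of those genes were called higher (391 higher and 790 lower, and 282 and 736). The 11 include Bhmt, Aldh7a1, Got1 and Glud1, for which no other tested probe was called higher in AAV-GP73. Normexp background correction with an offset of 50 left 4 enzymes called higher in AAV-GP73 (Aldh7a1, Bhmt, Gnmt and Ppm1k) and 1 in AAV-V HFD (Bhmt), and over all genes it gave 138 higher and 712 lower, and 72 and 822. The median over the enzymes minus that over all genes, 1.43 and 1.02 in the fit used here, was 0.52 and 0.37 after that correction, but the median of the enzymes itself turned from 2.02 and 1.39 to -0.05 and -0.36. At an unadjusted p under 0.05 it had 9 enzymes lower in AAV-GP73, and 19 were lower in AAV-V HFD. Of the 5761 genes, 4065 and 4469 passed that p in either direction, and the medians of all genes were -0.58 and -0.73. Scaling by the 75th percentile of all probes turned 1912 genes higher and 1117 lower in AAV-GP73 into 3717 and 401, and 1429 and 1049 in AAV-V HFD into 3273 and 182, and it moved the median of all genes to 1.59 and 1.32 while the enzymes stayed 1.43 and 1.02 above it. Spike-in scaling gave 4380 higher and 84 lower, and 3772 and 73, and for AAV-V HFD quantile normalization gave 2021 and 898.

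**Figure D1:**
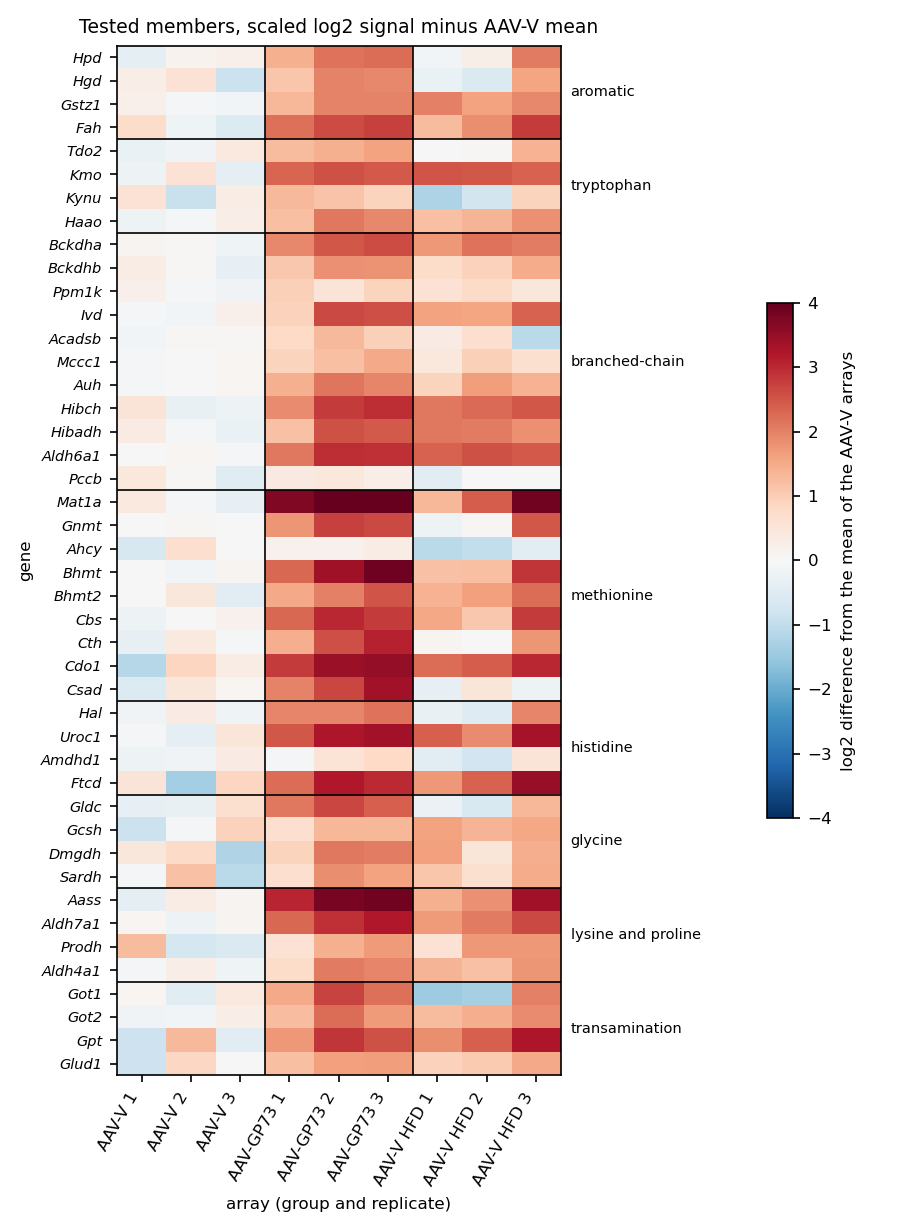
Each row is 1 of the 44 enzymes tested and each column 1 of the 9 arrays; the colour is the scaled log2 signal minus the mean of the 3 AAV-V arrays, with the deepest colours for differences of 4 or more either way. The AAV-GP73 columns are red in most rows, and AAV-V HFD replicate 3 differs from AAV-V HFD replicates 1 and 2 in rows such as Hpd, Gnmt, Hal and Got1.

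AAV-V HFD replicate 3 stood apart from the other AAV-V HFD arrays for these genes, and this is stated before the single groups because it touches most of them. In 14 of the 44 enzymes, 31.8%, it lay at least 1 log2 unit above both other AAV-V HFD arrays, which held for 2.43% of all genes tested. The 14 were Hpd, Hgd, Tdo2, Kynu, Mat1a, Gnmt, Bhmt, Cbs, Cth, Hal, Ftcd, Gldc, Aass and Got1. The median of the enzymes minus the median of all genes on the same array was -0.97, -0.41 and -0.96 on the AAV-V arrays, 0.42, 1.13 and 1.22 on the AAV-GP73 arrays, and 0.28, 0.42 and 1.1 on the AAV-V HFD arrays. AAV-V HFD replicates 1 and 2 thus lay at or below the lowest AAV-GP73 array, and replicate 3 lay between the AAV-GP73 arrays. Without AAV-V HFD replicate 3, 13 enzymes in place of 2 were called higher in AAV-GP73 than in AAV-V HFD, with 111 genes called higher in all. Those 13 were Csad and every one of the 14 above except Cbs and Ftcd. Since the 14 were picked for being high on replicate 3, leaving it out widens their difference from AAV-GP73 by construction. Values without that array, here and below, describe how far the results depend on it and are no separate support. In AAV-V HFD against AAV-V, 23 enzymes then rose and 2 (Got1, and Ahcy, detected on 1 AAV-V array alone) fell, with 1490 genes called higher and 1124 lower in all. AAV-V HFD replicate 3 had the lowest share of spots well above background of its group, 13.8%, and the part of this in the result was not tested.

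**Figure D2:**
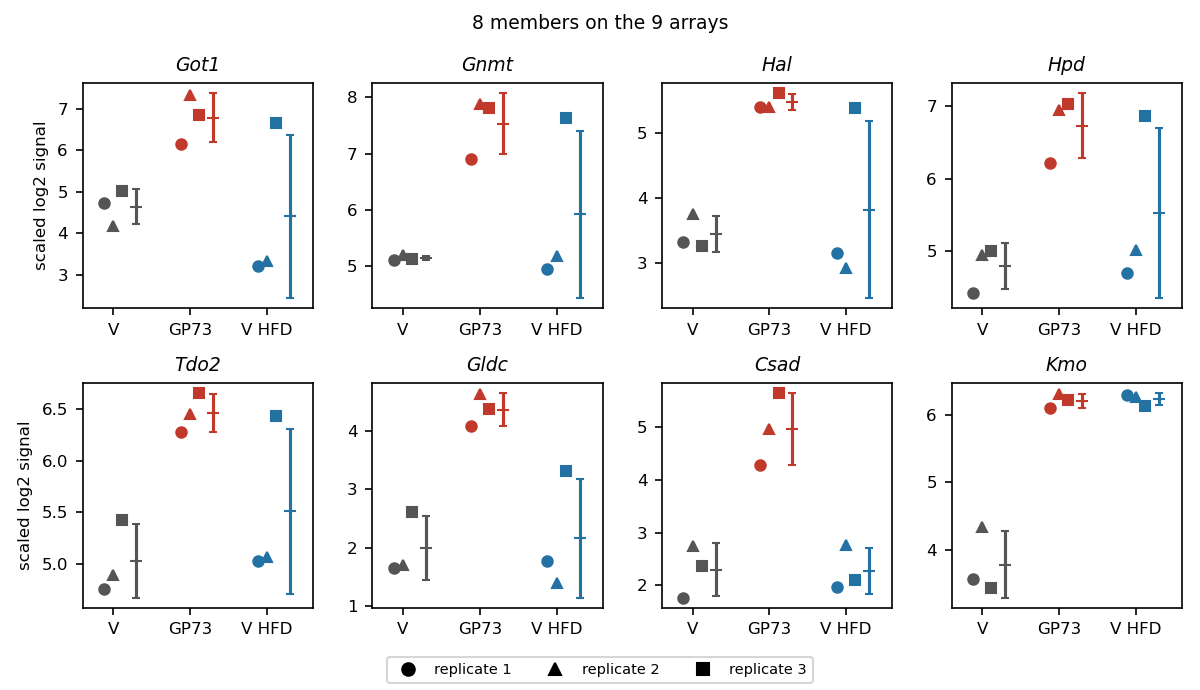
The points are the scaled log2 signals of 8 enzymes on the 9 arrays, with 1 symbol per replicate number, and the bar beside them is the mean ± SD of the 3 arrays. In Got1, Gnmt, Hal, Hpd, Tdo2 and Gldc the square of AAV-V HFD lies above the other AAV-V HFD points. In Csad all of AAV-V HFD lies near AAV-V, where no array detected it, and in Kmo all of AAV-V HFD lies near AAV-GP73.

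Promoter sequences of enzymes among those 14 are shown because these genes were high on the same array. RefSeq promoters on GRCm38.p6, 250 bases before and 50 after the start, were at hand for 45 of the 52 enzymes and for 11 of the 14. Of the 45, 5 had more than 1 promoter. The search covered both strands and 7 motifs: TATAAA, the C/EBP-type TTGCNNAA, the E-box CACGTG, the HNF4A-type CAAAGTCCA, an HNF1-type palindrome, a glucocorticoid receptor-type palindrome and the cyclic AMP response motif TGACGTCA. TATAAA was in 4 of the 11 and in 1 of the 27 other tested enzymes with a promoter, and 13.6% of all promoters held it. TTGCNNAA was in 3 of the 11 and 1 of the 27, against 10.8% of all promoters. The stretches below end just before the start, run 5′ to 3′ on the strand of the gene and have the matches of either motif, on either strand, in capitals.
Hal, chr10:93488608-93488767, plus strand: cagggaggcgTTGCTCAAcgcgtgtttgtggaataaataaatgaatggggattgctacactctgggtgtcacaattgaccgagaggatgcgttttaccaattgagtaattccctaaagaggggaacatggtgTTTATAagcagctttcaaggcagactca
Hgd, chr16:37580003-37580152, plus strand: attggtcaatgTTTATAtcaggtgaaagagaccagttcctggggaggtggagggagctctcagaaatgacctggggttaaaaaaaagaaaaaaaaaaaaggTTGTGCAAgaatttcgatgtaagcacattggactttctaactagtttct
Ftcd, chr10:76575588-76575647, plus strand: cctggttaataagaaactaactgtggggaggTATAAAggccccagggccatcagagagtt
Aass, chr6:23132987-23133046, minus strand: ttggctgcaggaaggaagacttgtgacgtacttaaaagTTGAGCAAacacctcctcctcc
Hal and Hgd held both motifs in these stretches, Ftcd only the TATA motif and Aass only the C/EBP-type motif. CACGTG was in Cbs and Mccc2, with a share of 7.15% of all promoters, and a glucocorticoid receptor-type motif was in Gnmt, with a share of 0.47%. The HNF4A-type, HNF1-type and cyclic AMP response motifs were in 0 of the 45. A match describes letters only, and the group of 14 was itself picked by its levels.

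In the aromatic group all 4 enzymes of tyrosine breakdown rose in AAV-GP73, while 2 of 4 rose in AAV-V HFD. Hgd, among the 4, was tested through AAV-GP73 alone. Hpd, which makes homogentisate, was at 4.42, 4.94 and 5 on the AAV-V arrays, 6.22, 6.95 and 7.03 on the AAV-GP73 arrays and 4.69, 5.02 and 6.86 on the AAV-V HFD arrays. All AAV-GP73 arrays lay above all AAV-V arrays, and the AAV-V HFD arrays overlapped both. The AAV-GP73 minus AAV-V difference was 1.95 ± 0.49 (SE), 3.86-fold, with adjusted p = 0.00509, and AAV-V HFD did not pass (0.74 ± 0.49, adjusted p = 0.221). Without AAV-V HFD replicate 3, Hpd was 1.88 ± 0.34 higher in AAV-GP73 than in AAV-V HFD, with adjusted p = 0.0238.

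Gstz1, which isomerises maleylacetoacetate, was at 5.31 to 5.62 in AAV-V, 6.75 to 7.41 in AAV-GP73 and 7.03 to 7.44 in AAV-V HFD. Both groups lay above AAV-V without overlap, by 1.76 ± 0.28 (adjusted p = 0.000335) and 1.85 ± 0.28 (adjusted p = 0.000587), and its second tested probe rose in both as well. Fah, the last enzyme of the route, was not well above background in AAV-V and was so on the 6 other arrays, at 4.7, 5.09 and 5.22 in AAV-GP73 and 3.74, 4.35 and 5.27 in AAV-V HFD. The rise was at least 2.21-fold in AAV-GP73 (adjusted p = 0.000442) and at least 1.51-fold in AAV-V HFD (adjusted p = 0.0029). Hgd, which opens the ring of homogentisate, was at 3.73, 4.59 and 4.54 in AAV-GP73 and at 2.34, 2.02 and 4.19 in AAV-V HFD.

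In the tryptophan group 3 of 4 tested enzymes rose in AAV-GP73, against 2 in AAV-V HFD. Kmo, which hydroxylates kynurenine, was at 3.56, 4.34 and 3.43 in AAV-V, 6.1, 6.31 and 6.22 in AAV-GP73 and 6.3, 6.27 and 6.13 in AAV-V HFD. The SD was 0.1 in AAV-GP73, against 0.09 in AAV-V HFD, with rises of 2.43 ± 0.29 (adjusted p = 9.1e-05) and 2.45 ± 0.29 (adjusted p = 0.00023), although 1 AAV-V array alone had it well above background. Haao, which cleaves 3-hydroxyanthranilate further down, rose by 1.75 ± 0.31 (adjusted p = 0.000643) and by 1.46 ± 0.31 (adjusted p = 0.00275).

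Tdo2, the dioxygenase at the head of the route, was at 4.76, 4.9 and 5.43 in AAV-V, 6.28, 6.45 and 6.65 in AAV-GP73, and 5.03, 5.07 and 6.43 in AAV-V HFD. Replicates 1 and 2 of AAV-V HFD lay within the AAV-V range and replicate 3 within that of AAV-GP73. The difference was 1.43 ± 0.38 in AAV-GP73 (adjusted p = 0.00652), with 0.48 ± 0.38 in AAV-V HFD (adjusted p = 0.294). Kynu, which removes the alanine side chain, was called in neither: its AAV-GP73 arrays were at 3.52 to 3.92, its AAV-V HFD arrays at 1.38, 1.89 and 3.52, and no AAV-V array had it well above background.

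In the branched-chain group, which includes propionate, 9 of the 11 tested enzymes rose in AAV-GP73, against 7 in AAV-V HFD. Acadsb and Mccc1, among the 9, and Pccb were tested through AAV-GP73 alone. Of the 11, 8 were detected on no AAV-V array, and the median difference of 1.84 in AAV-GP73 became 0.54 with bounds. Aldh6a1, which oxidises methylmalonate semialdehyde from valine, was at 3.25 to 3.41 in AAV-V, below detection, at 5.42, 6.26 and 6.23 in AAV-GP73 and at 5.68, 5.86 and 5.76 in AAV-V HFD. It rose at least 4.33-fold in AAV-GP73 (adjusted p = 6.25e-05) and at least 3.76-fold in AAV-V HFD (adjusted p = 0.000229). Hibch, the preceding hydrolase, rose at least 1.45-fold (adjusted p = 0.000151) and at least 1.21-fold (adjusted p = 0.000556).

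Bckdha, a subunit of the branched-chain ketoacid dehydrogenase, was below detection in AAV-V, at 4.8, 5.38 and 5.48 in AAV-GP73 and at 4.62, 5.04 and 4.93 in AAV-V HFD. It rose at least 2.57-fold in AAV-GP73, with adjusted p = 9.1e-05, and was called higher in AAV-V HFD as well. Hibadh, the 3-hydroxyisobutyrate dehydrogenase, rose by 2 ± 0.36 in AAV-V HFD (adjusted p = 0.0013), from 4.61, 4.23 and 4.02 to 6.4, 6.36 and 6.1. It was called higher in AAV-GP73 as well, at 5.46, 6.82 and 6.74. Bckdhb, another subunit of the dehydrogenase, was called in both, at 3.33 to 3.93 in AAV-V, 4.73 to 5.49 in AAV-GP73 and 4.38 to 5.12 in AAV-V HFD, where the call was lost without replicate 3 (0.84 ± 0.33, adjusted p = 0.0557). Ivd, Auh, Mccc1 and Acadsb, of leucine and isoleucine breakdown, were called in AAV-GP73 with lower bounds of 1.13-fold for Ivd and none over 1-fold for the other 3. Pccb, of propionate carboxylation, was called in neither comparison.

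Ppm1k, the phosphatase that activates the dehydrogenase, was at 9.68, 9.44 and 9.34 in AAV-V, 10.45, 10 and 10.37 in AAV-GP73 and 10.05, 10.25 and 9.93 in AAV-V HFD. The AAV-V arrays lay below all others, but neither difference was called (0.78 ± 0.26, adjusted p = 0.0205, and 0.59 ± 0.26, adjusted p = 0.0721), the first because its fold of 1.72 was under 2. Its second tested probe, 1708 bases nearer the 3′ end, was well above background on the 3 AAV-GP73 arrays alone, at 2.35, 4.32 and 2.3. Against AAV-V it had no lower bound over 1-fold, since the lowest signal well above background was higher there.

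The methionine group had the largest differences of the 8 groups in AAV-GP73, with a median of 2.68, and 8 of 9 enzymes rose. Csad, among those that rose, was tested through AAV-GP73 alone. Mat1a, which makes S-adenosylmethionine in hepatocytes, was at 3.32, 2.9 and 2.6 in AAV-V, below detection, at 6.64, 7.19 and 7.4 in AAV-GP73 and at 4.28, 5.35 and 6.81 in AAV-V HFD. It rose at least 9.31-fold in AAV-GP73 (adjusted p = 0.000112) and at least 3.08-fold in AAV-V HFD (adjusted p = 0.00225). Its AAV-V HFD arrays were spread over more than 2 log2 units.

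Gnmt, which uses up S-adenosylmethionine by methylating glycine, was at 5.12, 5.2 and 5.13 in AAV-V, 6.91, 7.88 and 7.8 in AAV-GP73, and 4.96, 5.19 and 7.63 in AAV-V HFD. AAV-V HFD replicates 1 and 2 lay within or just below the AAV-V range. Without replicate 3 the AAV-GP73 minus AAV-V HFD difference was 2.46 ± 0.34 (adjusted p = 0.00602), and with it 1.61 ± 0.58 (adjusted p = 0.185).

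Bhmt, which remethylates homocysteine with betaine, was at 7.71, 7.58 and 7.82 in AAV-V, 10, 11.08 and 11.59 in AAV-GP73 and 8.88, 8.91 and 10.57 in AAV-V HFD. Its AAV-GP73 difference was 3.19 ± 0.49, 9.1-fold, with adjusted p = 0.00027. Its second tested probe, 26 bases nearer the 3′ end than the brightest one at chr13:94386862-94386921 (mm9), gave 0.11 ± 0.47 in AAV-GP73 (adjusted p = 0.848) and fell by 1.41 in AAV-V HFD (adjusted p = 0.0242), with 9.31, 8.73 and 9.58 on the AAV-V arrays. The neighbouring paralog Bhmt2 rose at least 3.06-fold in AAV-GP73 and at least 2.56-fold in AAV-V HFD, and whether its probe also binds Bhmt was not tested.

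In transsulfuration, Cbs was at 4.16, 4.4 and 4.56 in AAV-V, 6.67, 7.39 and 7.17 in AAV-GP73 and 5.91, 5.45 and 7.17 in AAV-V HFD. Cbs rose by 1.81 ± 0.4 in AAV-V HFD (adjusted p = 0.00364), and all of its AAV-V HFD arrays lay above AAV-V. It was called higher in AAV-GP73 as well. Cth, the next enzyme, was at 3.53, 3.45 and 5.19 in AAV-V HFD, where no difference was called, and at 4.86, 6 and 6.49 in AAV-GP73, where the rise was at least 3.8-fold. Ahcy, which hydrolyses S-adenosylhomocysteine, was the one enzyme of the group called in no comparison with AAV-V, at 2.82, 4.15 and 3.45 in AAV-V, 3.66, 3.65 and 3.78 in AAV-GP73 and 2.38, 2.49 and 3.04 in AAV-V HFD. It was detected on 1 AAV-V array and on all AAV-V HFD arrays. Its calls as lower in AAV-V HFD when single arrays are left out thus rest in part on AAV-V readings below detection.

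The cysteine end of the route held 1 of the 2 enzymes called between AAV-GP73 and AAV-V HFD. Cdo1, cysteine dioxygenase, rose by 3.26 ± 0.46 in AAV-GP73 (adjusted p = 0.000181) and by 2.54 ± 0.46 in AAV-V HFD (adjusted p = 0.0012), from 2.61, 4.6 and 4.04 to 6.56, 7.2 and 7.26 and to 5.97, 6.16 and 6.75. Its second tested probe, not well above background in AAV-V, rose at least 4.14-fold and at least 2.41-fold. Csad, which makes hypotaurine from the product of Cdo1, was at 1.76, 2.75 and 2.37 in AAV-V, 4.29, 4.97 and 5.65 in AAV-GP73 and 1.96, 2.77 and 2.09 in AAV-V HFD. All AAV-GP73 arrays lay above all other arrays, and those of AAV-V HFD lay within or just above the AAV-V range. No AAV-V array detected Csad, so that the nearness of AAV-V HFD to AAV-V rests on readings below detection. The AAV-GP73 minus AAV-V HFD difference was 2.69 ± 0.39 as fitted, with adjusted p = 0.00642, and 2.6 ± 0.45 without AAV-V HFD replicate 3. With the log2 values of the authors it was 2.63 with adjusted p = 0.0683. Csad was detected on 1 AAV-V HFD array and passed the filter through AAV-GP73 alone, so that no exact fold is given.

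In the histidine group 3 of 4 enzymes rose in AAV-GP73, against 2 in AAV-V HFD, and no member was detected throughout AAV-V. Hal, which removes ammonia from histidine, was at 3.32, 3.76 and 3.26 in AAV-V, 5.41, 5.41 and 5.62 in AAV-GP73, and 3.16, 2.93 and 5.39 in AAV-V HFD. It rose at least 3.08-fold in AAV-GP73 (adjusted p = 0.00554). Without AAV-V HFD replicate 3 it was 2.44 ± 0.29 higher in AAV-GP73 than in AAV-V HFD (adjusted p = 0.00274), against 1.65 ± 0.52 (adjusted p = 0.131) with it.

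Uroc1, the urocanase that acts next, rose at least 2.65-fold in AAV-GP73 (adjusted p = 0.000139) and at least 1.87-fold in AAV-V HFD (adjusted p = 0.000673), and all arrays of both groups, at 4.72 to 5.6 and 4.13 to 5.54, lay above those of AAV-V. Ftcd, which moves the formimino group to folate, was at 3.84, 1.96 and 4.18 in AAV-V, 5.57, 6.54 and 6.32 in AAV-GP73 and 5.05, 5.7 and 6.8 in AAV-V HFD, with rises of 2.81 ± 0.58 (adjusted p = 0.00148) and 2.52 ± 0.58 (adjusted p = 0.00416). Amdhd1, the imidazolonepropionase between them, was called in neither, at 3.99 to 4.55, 4.12 to 5 and 3.44 to 4.73.

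In the glycine group all 4 tested enzymes rose in AAV-GP73, among them Gldc, tested through that group alone, against 1, Gcsh, in AAV-V HFD. The count in AAV-V HFD, 25%, is near the 24.8% of all genes called higher there. Gldc, the decarboxylase of the glycine cleavage system, was at 1.65, 1.7 and 2.62 in AAV-V, 4.09, 4.65 and 4.39 in AAV-GP73 and 1.77, 1.39 and 3.32 in AAV-V HFD. Every AAV-GP73 array lay above every other array. The rise over AAV-V was at least 1.43-fold (adjusted p = 0.00105), and the difference from AAV-V HFD was 2.22 ± 0.46 as fitted, with adjusted p = 0.0302. That call was lost without AAV-GP73 replicate 1 (2.36, adjusted p = 0.0654), 2 (2.08, adjusted p = 0.139) or 3 (2.21, adjusted p = 0.134) and without AAV-V HFD replicate 1 (2.02, adjusted p = 0.0952) or 2 (1.83, adjusted p = 0.079), and without AAV-V HFD replicate 3 it was 2.79 ± 0.36 (adjusted p = 0.00428). Gldc was detected on 1 AAV-V HFD array and passed the filter through AAV-GP73 alone, so that no exact fold is given here either.

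Gcsh, the lipoyl carrier of the same system, was at 3.04, 3.84 and 4.84 in AAV-V, 4.57, 5.24 and 5.24 in AAV-GP73, and 5.51, 5.27 and 5.44 in AAV-V HFD, where it rose by 1.5 ± 0.4 (adjusted p = 0.00922). Dmgdh and Sardh, which demethylate the glycine derivatives left by choline breakdown, were called in AAV-GP73 by 1.7 ± 0.52 (adjusted p = 0.0148) and 1.38 ± 0.51 (adjusted p = 0.0339). Their AAV-V arrays were widely spread, at 3.94, 4.24 and 2.29 for Dmgdh and 2.91, 4.16 and 1.94 for Sardh. Each of these 2 enzymes was detected on 1 AAV-V array alone. The Dmgdh call was lost without AAV-V replicate 3 (1.1, adjusted p = 0.0624) or AAV-GP73 replicate 2 (1.48, adjusted p = 0.0594) or 3 (1.52, adjusted p = 0.0571). The Sardh call was lost without AAV-V replicate 1 (1.34, adjusted p = 0.0714) or 3 (0.85, adjusted p = 0.149) or AAV-GP73 replicate 2 (1.14, adjusted p = 0.119) or 3 (1.27, adjusted p = 0.0968).

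Among the lysine and proline enzymes 3 of 4 rose in AAV-GP73, against all 4 in AAV-V HFD. Aass, which starts lysine breakdown in mitochondria, was at 2.54, 3.24 and 3.05 in AAV-V, below detection, at 5.98, 6.74 and 6.79 in AAV-GP73 and at 4.37, 4.77 and 6.31 in AAV-V HFD. It rose at least 6.25-fold in AAV-GP73 (adjusted p = 0.000129) and at least 2.45-fold in AAV-V HFD (adjusted p = 0.00253). Without AAV-V HFD replicate 3, it was 1.93 ± 0.36 higher in AAV-GP73 than in AAV-V HFD (adjusted p = 0.0238).

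Aldh7a1, which oxidises the aminoadipic semialdehyde made by Aass, gave opposite results with its 2 probes. The brightest, at 5.14, 4.86 and 5.15 in AAV-V, 7.34, 7.98 and 8.24 in AAV-GP73 and 6.76, 7.14 and 7.69 in AAV-V HFD, rose by 2.8 ± 0.33 (adjusted p = 8.35e-05) and 2.15 ± 0.33 (adjusted p = 0.000587). The other, 32452 bases nearer the 5′ end, fell by 1.36 in AAV-GP73 (adjusted p = 0.00441) and by 1.29 in AAV-V HFD (adjusted p = 0.00779), from 4.39, 5.51 and 5.11 to 3.27, 3.65 and 4.01 and to 3.82, 3.46 and 3.85. The mean of both probes was 0.72 higher in AAV-GP73, with adjusted p = 0.0502.

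Aldh4a1, which completes proline breakdown, rose by 1.59 ± 0.36 (adjusted p = 0.00291) and by 1.43 ± 0.36 (adjusted p = 0.00708), from 4.34, 4.67 and 4.23 in AAV-V to 5.15, 6.49 and 6.38 and to 5.78, 5.57 and 6.19. Prodh, the proline dehydrogenase before it, was called in AAV-V HFD alone, with adjusted p = 0.0492, against 0.0604 in AAV-GP73, and 0.13 without AAV-V HFD replicate 3. Its means were nearly equal in these groups, 3.69 ± 0.59 (SD) in AAV-GP73, with 3.79 ± 0.67 in AAV-V HFD, and it had no lower bound over 1-fold, with no AAV-V array well above background.

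All 4 enzymes of the transamination group, which move or release amino groups, rose in AAV-GP73, while 3 rose in AAV-V HFD. Got1, the cytosolic aspartate aminotransferase, was at 4.72, 4.18 and 5.03 in AAV-V, 6.16, 7.34 and 6.85 in AAV-GP73 and 3.22, 3.33 and 6.67 in AAV-V HFD. AAV-V HFD replicates 1 and 2 lay below all AAV-V arrays and replicate 3 within the AAV-GP73 range. The AAV-GP73 minus AAV-V difference was 2.14 ± 0.74 (adjusted p = 0.0259), and it was lost without AAV-V replicate 2 (1.91, adjusted p = 0.0792) and without AAV-GP73 replicate 2 (1.86, adjusted p = 0.0885) or 3 (2.1, adjusted p = 0.0642). Without AAV-V HFD replicate 3, Got1 was the enzyme with the largest difference between AAV-GP73 and AAV-V HFD, 3.51 ± 0.39 (adjusted p = 0.00188), and it was 1.37 lower in AAV-V HFD than in AAV-V (-1.37 ± 0.39, adjusted p = 0.0149).

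The other 2 tested probes of Got1 did not show a rise in AAV-GP73. The brightest lies at chr19:43574278-43574337 (mm9), at the 3′ end of the probes, and the others start 4836 and 4846 bases nearer the 5′ end. Both were well above background on 1 AAV-V HFD array. These gave -0.68 ± 0.75 (adjusted p = 0.444) and -0.77 ± 0.71 (adjusted p = 0.356) in AAV-GP73, and both fell in AAV-V HFD, by 2.48 (adjusted p = 0.0168) and 2.73 (adjusted p = 0.00774). On AAV-V HFD replicates 1 and 2 they were at 0.34 and 1.12, and at 0.06 and 0.33, and on replicate 3 at 4.3 and 3.49. All 3 probes thus put AAV-V HFD replicate 3 above replicates 1 and 2, while they disagreed on AAV-GP73 against AAV-V.

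**Figure D3:**
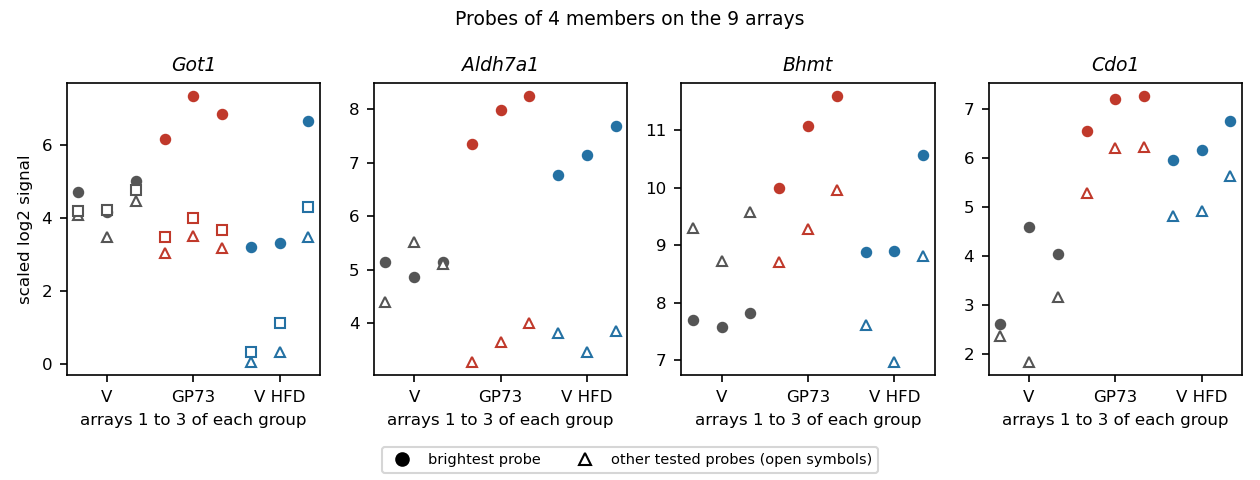
The points are the scaled log2 signals of the tested probes of 4 enzymes on the 3 arrays of each group, filled for the brightest probe and open for the others. The probes of Cdo1 rise together in AAV-GP73 and AAV-V HFD, whereas in Got1, Aldh7a1 and Bhmt the open symbols do not follow the filled ones from AAV-V to AAV-GP73.

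Got2, the mitochondrial aspartate aminotransferase, rose at least 2.37-fold in AAV-GP73 (adjusted p = 0.00078) and at least 2.09-fold in AAV-V HFD (adjusted p = 0.00242). Gpt, the alanine aminotransferase, rose at least 2.16-fold (adjusted p = 0.00282) and at least 2.37-fold (adjusted p = 0.00302), although 1 AAV-V array, replicate 2, read 3.92 against 1.78 and 2.16 on the others. Glud1, which releases ammonia from glutamate, was at 5.5, 7.15 and 6.29 in AAV-V, 7.52, 7.94 and 7.98 in AAV-GP73 and 7.24, 7.36 and 7.83 in AAV-V HFD. Its rise of 1.16 ± 0.39 in AAV-V HFD (adjusted p = 0.0245) was lost without AAV-V replicate 1 (0.76, adjusted p = 0.0861) or 3 (1.15, adjusted p = 0.0597) or AAV-V HFD replicate 3 (0.99, adjusted p = 0.075).

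**Figure D4:**
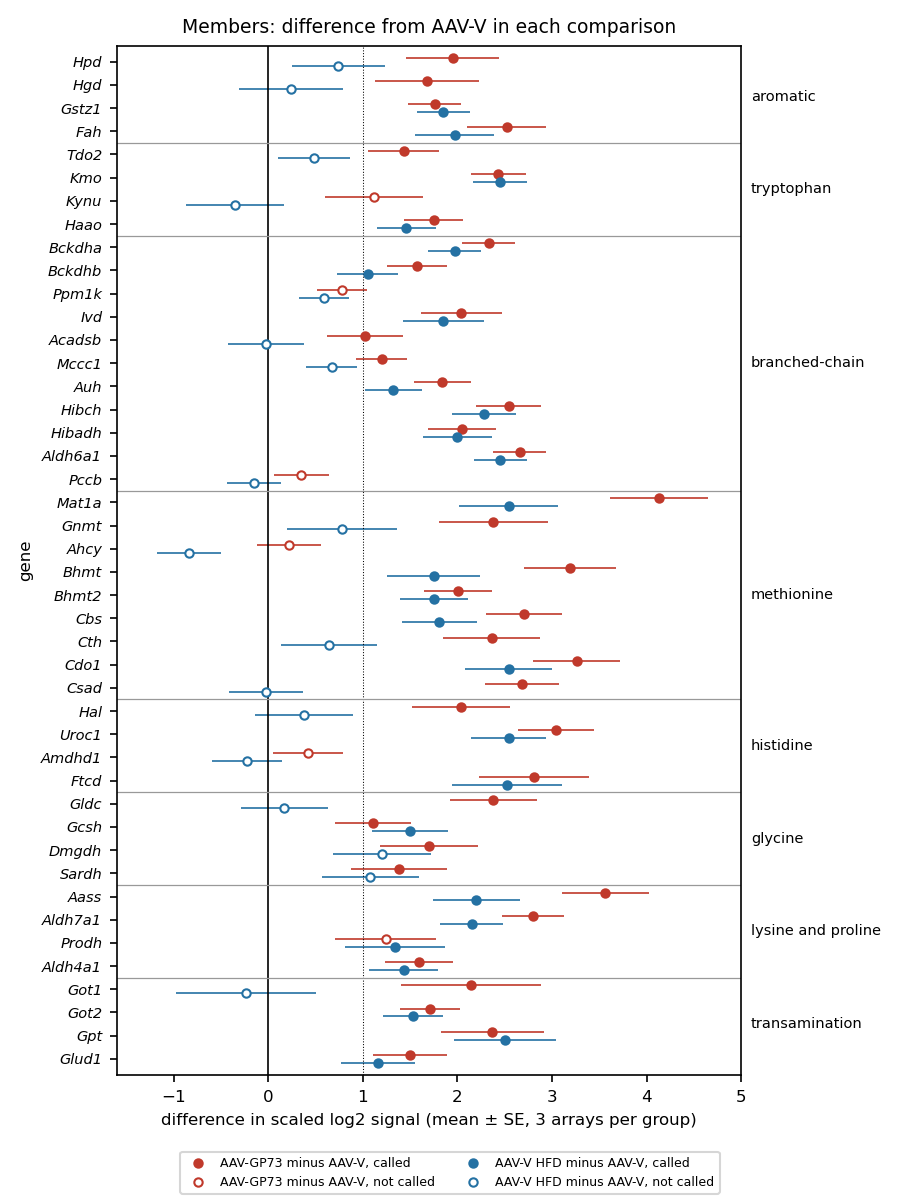
Each point is the difference in scaled log2 signal from AAV-V of 1 enzyme in AAV-GP73 (red) or AAV-V HFD (blue), with its standard error from the fit (3 arrays per group); filled points were called, and values below detection enter as fitted. Red points lie between 0.22 and 4.13 and blue points between -0.84 and 2.54, and the dotted line marks the fold of 2 below which nothing was called.

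Other genes of amino acid metabolism were followed as a list. Of a list of 75, 72 were on the arrays and 43 were tested. As a measure, 33.2% of all genes tested rose and 19.4% fell in AAV-GP73, with a median difference of 0.6. For AAV-V HFD these values were 24.8%, 18.2% and 0.37. Of the 43, 32 rose and 1 fell in AAV-GP73, with a median of 1.78. Under AAV-V HFD 24 rose and 1 fell, with a median of 1.36. The one that fell in both was Gpt2, the mitochondrial alanine aminotransferase, at 8.26, 8.65 and 8.61 in AAV-V against 6.71 to 7.27 in AAV-GP73 and 6.9 to 7.1 in AAV-V HFD. The differences were -1.53 ± 0.26 (adjusted p = 0.000505) and -1.48 ± 0.26 (adjusted p = 0.00116), opposite to those of Gpt. Oat, the ornithine aminotransferase, rose by 4.29 ± 0.48 and 2.76 ± 0.48.

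Markers of liver cells were followed on the same scale. Of 10 hepatocyte genes 9 were on the arrays and tested, and 1 (Hp) was called higher in both comparisons and 0 lower, with medians of 0.28 and -0.25, and Alb was at 12.32 to 12.49 in AAV-V, 11.99 to 12.59 in AAV-GP73 and 11.09 to 11.97 in AAV-V HFD, while the other 8 were not called. Of 7 tested periportal genes 3 (Hal, Gls2 and Pck1) rose in AAV-GP73, while 1 rose and 1 fell in AAV-V HFD, and of 8 pericentral genes 6 rose and 1 fell in each, with Slc1a2 falling in AAV-GP73 and Cyp1a2 in AAV-V HFD. These lists are not separate from the genes above. Hal is itself an enzyme of the set, and Gls2, Sds, Etnppl, Glul and Oat are also among the other genes of amino acid metabolism. The log2 of the summed signal of the erythroid markers was 11.74 to 14.09 in AAV-GP73. It was lower in AAV-V (8.62 to 9.93) and AAV-V HFD (9.35 to 10.15). Of the 4 erythroid markers tested, 3 were called higher in AAV-GP73. So were 1 of 4 tested Kupffer cell genes, 1 of 2 stellate genes and the 1 endothelial gene tested, with 0 lower. Of these 3 lists, AAV-V HFD had 0 genes higher and 1, the stellate marker Reln, lower. Every marker count stands against 33.2% of all genes tested higher and 19.4% lower for AAV-GP73. For AAV-V HFD these shares were 24.8% and 18.2%. Of the lymphocyte, adipocyte and cholangiocyte markers 0 were tested. Fewer cells of a type and less RNA per cell cannot be told apart in whole tissue, and the part of these markers in the results was not tested.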

How the data were processed

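Liver RNA of 9 mice or pools was measured on 9 one-colour arrays. As deposited, each intensity is a processed signal of Agilent Feature Extraction (12.0.3.1 in the file headers, 10.7 in the submitters' processing notes), with spatial and multiplicative detrending and no scaling between arrays, and probes carry mm9 coordinates. The log2 values deposited by the authors were an alternative; the submitters' processing notes name limma, without its version or the normalization used. Spots with outlier flags (98 to 151 per array) were left out, log2 signals were scaled as described with the results, and all 3 groups were fitted with limma 3.58.1 in R 4.3.3. The study's methods name a t-test, which was an alternative. The p values were adjusted by Benjamini-Hochberg over the genes tested; fits were tested on simulated data.

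The members and lists were chosen with earlier results of these data known. Folds, or why none is given, stand with up to 3 called members with the largest difference in each amino acid group and comparison with AAV-V, with members called lower or called between AAV-GP73 and AAV-V HFD, and with Ppm1k. Gnmt, Hgd, Bhmt2, Cth, Prodh, Ahcy, Ivd, Auh, Mccc1 and Acadsb, single probes and genes that are no members were chosen for description after their values were seen. Alternatives were the scaling, the background correction, the filter on dim probes, the choice of probe, the test, the threshold, the replicate number as a block and each array left out. Normexp with an offset of 1 was added after seeing the data. Groups come from the labels. With 3 arrays per group, precision is limited by their number.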

Additional observations from a re-analysis of the deposited data

How the results depend on the processing

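Values are given in the order AAV-GP73 against AAV-V, AAV-V HFD against AAV-V and AAV-GP73 against AAV-V HFD, where 38, 26 and 2 enzymes were called higher, 0 lower, and 3029, 2478 and 145 genes in all. Normexp gave 4, 1 and 0 enzymes higher and 850, 894 and 42 genes, and medians of the enzymes minus all genes of 0.52 and 0.37 in place of 1.43 and 1.02. Its offset of 50 exceeded the median signal of probes detected on all arrays in AAV-V (33.1 to 38.7) and not elsewhere (76.4 to 129). Normexp with an offset of 1, chosen after seeing the data, gave 28, 10 and 1 enzymes and 1311, 901 and 8 genes. It reversed 0 of 47 named comparisons, but in AAV-V HFD it called 301 genes higher and 600 lower, against 1429 and 1049, with a median of all genes of -0.19 in place of 0.37 and of the enzymes of 0.66 in place of 1.39. The genes detected on all 9 arrays alone, a smaller set, gave 11, 7 and 0 enzymes, 1181, 1018 and 65 genes, and medians of 2.04 and 1.65. With no filter the counts were 29630, 27941 and 29 genes, with 1 enzyme (Acmsd) lower in AAV-GP73, 3 (Acmsd, Amt and Dbt) lower in AAV-V HFD and 1 higher between the treated groups, and medians of 3.35 and 2.52. Spike-in scaling gave 41 enzymes higher in AAV-V HFD, 8 between the treated groups, and 3845 and 304 genes. Between AAV-GP73 and AAV-V HFD, quantile normalization gave 1 enzyme and 33 genes and the authors' log2 values 0 and 12. The methods' t-test gave 35, 24 and 3 enzymes unadjusted, with 327 genes in the last comparison, and 32, 14 and 0 after Benjamini-Hochberg, with 1556 genes in AAV-V HFD and 13 in the last. For these changes of count the cause was not tested.

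Under normexp the AAV-GP73 differences reversed to -0.23 for Fah, -0.26 for Hibch, -0.07 for Bckdha, -0.39 for Gldc, -0.15 for Dmgdh, -0.4 for Sardh, -0.03 for Uroc1, -0.07 for Hal, -0.24 for Gpt and -0.16 for Got2. The AAV-V HFD differences reversed to -0.53 for Fah, -0.51 for Hibch, -0.3 for Gcsh, -0.37 for Uroc1, -0.27 for Aass, -0.03 for Aldh4a1, -0.06 for Mat1a, -0.29 for Gpt and -0.36 for Got2. With the mean of all probes Ppm1k reversed to -0.43 in AAV-V HFD. In the other scalings 0 of 47 named comparisons reversed.

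Leaving out 1 array at a time gave 32 to 39, 23 to 27 and 1 to 13 enzymes higher, 0 to 2 lower in AAV-V HFD (Ahcy without AAV-V replicate 1, Ahcy and Got1 without AAV-V HFD replicate 3), and 21 to 161 genes between AAV-GP73 and AAV-V HFD: 59, 33 and 21 without AAV-GP73 replicate 1, 2 or 3 and 66 without AAV-V HFD replicate 1. The replicate numbers did not pair the arrays (correlations of deviations from -0.12 to 0.17, 2 of 9 over 0.1). With the replicate number as a block, 38, 25 and 2 enzymes were called higher, and 91 genes in the last comparison. Signals near background in AAV-V limit every fold of an enzyme not detected there.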
